A study of Mus musculus with 16 samples.

Results

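The comparison described here sets 4 arrays of HSALR mice given the antisense oligonucleotide ASO 445236 against 4 arrays of HSALR mice given saline, out of 16 arrays in all. The members are the arrays whose titles name these groups, and all 8 lay on 1 of the study's 2 chips, so chip does not differ between the groups. Total RNA came from quadriceps muscle of adult transgenic mice on the FVB/n background, which had received oligo or saline under the skin for 4 weeks at an interval the labels call biweekly. The other 8 arrays hold saline-treated wild-type (WT) mice and a group of HSALR mice that received a different oligo, ASO 190401. They lay on the other chip and entered the normalization and the estimate of spread. The labels do not state the animals' sex or age in weeks, nor whether different arrays hold different animals, and the p-values then cover array-to-array spread, which may be technical.

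The transgene of HSALR mice is the human skeletal actin gene; it ends in a long CUG repeat and is expressed in skeletal muscle. In myotonic dystrophy type 1, which the line models, such repeat RNA is held in the nucleus and binds the muscleblind-like splicing factors (MBNL), so that many muscle transcripts keep fetal splicing patterns and the chloride channel CLCN1 is lost, which gives myotonia. Antisense oligos of the kind that recruit the nuclear enzyme RNase H1 cut the RNA they pair with. Phosphorothioate oligos are also known, in other settings, to engage receptors of innate immune cells and to be taken up by macrophages.

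Each of 25697 probes was read as an intensity on each array, and the test took in 12364 probes that reached a detection p below 0.05 on 4 or more of the 16 arrays. They give 8725 named genes, each represented by its brightest probe. Levels below are log2 normalized intensities, differences are log2 (ASO 445236 minus saline) with standard errors after ±, each group has n = 4, and per-array values run from replicate 1 to replicate 4, numbers that only name the arrays. Between 11105 and 11700 probes lay above background on each of the 8 arrays, and precision is limited by how few arrays there are. The raw 75th percentile of intensity was higher under ASO 445236, at 146 ± 8.91 against 112 ± 7.63 (SD, exact two-sided permutation p = 0.0286, the smallest possible), while the number of probes above background was 11346 ± 242 against 11323 ± 147 (SD, exact two-sided permutation p = 0.886).

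The 8 arrays parted by treatment first. On the first principal component, with 43.2% of the variance, the ASO 445236 arrays scored -26.05, -11.18, -20.15 and -20.83 and the saline arrays 15.26, 19.38, 23.12 and 20.45. ASO 445236 replicate 2 lay nearest to the saline arrays. The second component, with 15.8%, set replicate 1 of each group (21.54 and 17.56) apart from the other 6 arrays (at most -0.52). These were also the 2 arrays on which both probes for Xist, the RNA that silences an X chromosome in female cells, lay above background and the Y-linked gene Kdm5d did not; the other 6 arrays showed the reverse. The mix was thus 1 of 4 arrays in each group. On the other chip Xist was above background on 3 of 4 WT and 4 of 4 ASO 190401 arrays. Correlations between arrays ran from 0.9827 to 0.9898 within ASO 445236, from 0.9869 to 0.9912 within saline and from 0.9700 to 0.9825 between the groups, and 0 pairs of arrays were identical.

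**Figure D1:**
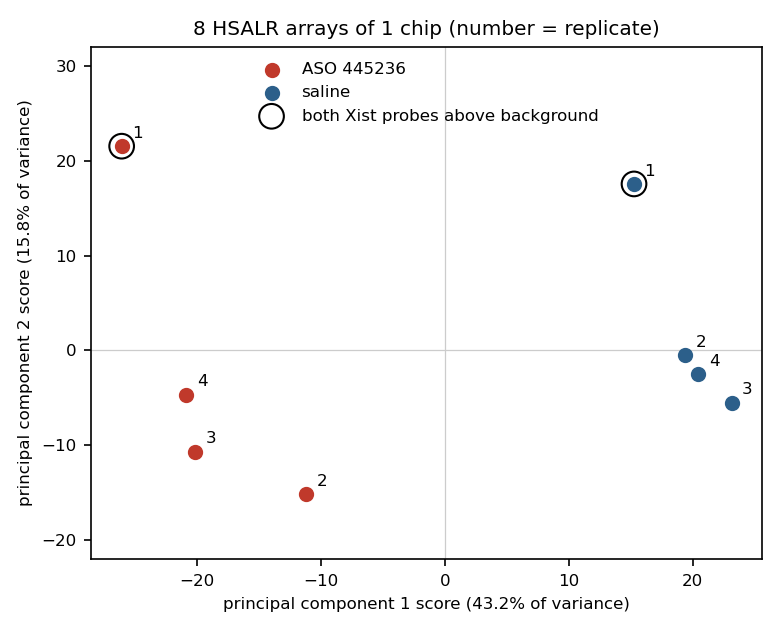
Scores of the 8 arrays on the first (x axis) and second (y axis) principal component of the tested probes' log2 levels, with ASO 445236 in red and saline in blue, and rings around the 2 arrays with both Xist probes above background. The groups do not overlap on the first component, and the ringed arrays lie at 21.54 and 17.56 on the second.

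A gene or probe is called below at an adjusted p under 0.05 from limma's moderated test, Benjamini-Hochberg adjusted over the 12364 probes. Among probes 753 were higher (6.09%) and 743 lower (6.01%) under ASO 445236, and among genes 572 were higher (6.56%) and 562 lower (6.44%). These percentages are the background for the counts of gene groups below, for some of which the share is given. A gene on several lists counts in each, as Laptm5, Cxcl9 and Cdkn1a do, so the counts of lists are not independent. Of the called genes 71 rose and 95 fell at least 2-fold, and 5 rose and 13 fell more than 4-fold. That balance turned with the processing: the genes higher at least 2-fold and the genes lower at least 2-fold were 126 and 71 under median scaling, 130 and 124 with a floor at 16 in place of normexp, and 179 and 108 with the authors' deposited values. The median difference of all genes was 0.01, and that of called genes, regardless of sign, was 0.56. With median scaling in place of quantile normalization the median of all genes moved to 0.16 and the calls became 1485 higher and 251 lower, 85.5% higher against 50.4%; small differences are therefore relative to that scaling. Without the 2 arrays that held Xist, 362 genes were higher and 365 lower, and 702 of these 727 were among the 1134 called over all arrays.

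**Figure D2:**
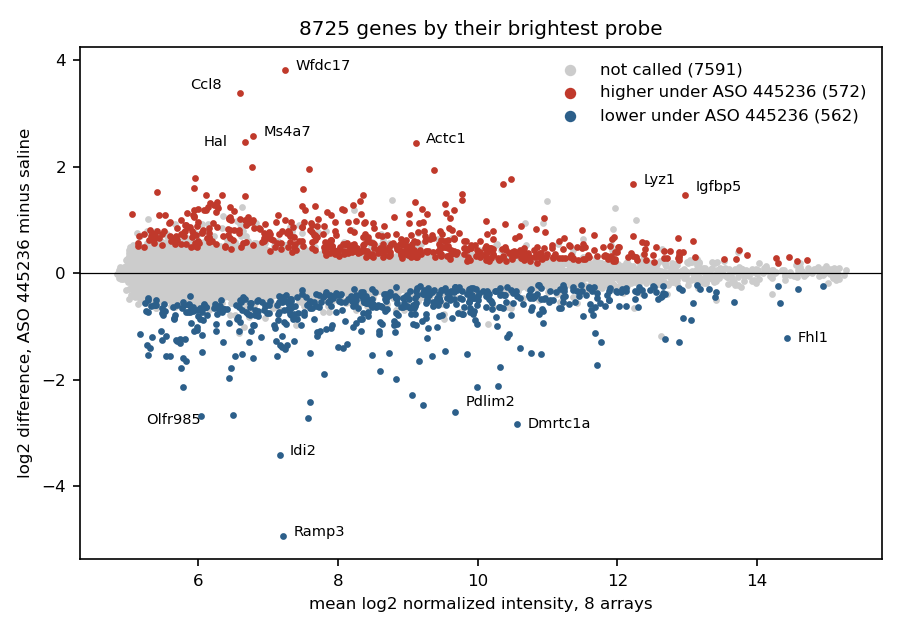
Log2 difference between ASO 445236 and saline (y axis) against the mean log2 normalized intensity over the 8 arrays (x axis) for 8725 genes, each by its brightest probe. Red points are the 572 genes called higher and blue points the 562 called lower; Wfdc17 reaches 3.81 and Ramp3 -4.93.

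The gene next to the oligo's mechanism comes first. Mouse Acta1, the counterpart of the transgene's coding part, read 14.88, 14.90, 14.97 and 14.91 under ASO 445236 and 14.79, 14.83, 15.03 and 14.79 under saline. The groups overlapped, and the difference of 0.05 ± 0.06 was not called (adjusted p = 0.63). Probe sequences were not used here, so it is unknown whether the human transgene is read by this probe too, and it checks neither the transgene nor the oligo's target. Of 15 tested genes for RNase H and RNA decay enzymes 0 were lower (1 lower at an unadjusted limma p under 0.05). Higher was 1 (6.67%), near the share of 6.56% over all genes. The member was Exosc4, a subunit of the RNA exosome, at 0.41 ± 0.08. Rnaseh1, which encodes the nuclease that such oligos recruit, read 6.52, 6.29, 6.91 and 6.16 against 6.79, 6.56, 6.62 and 6.86, which overlap, with a difference of -0.24 ± 0.20 (adjusted p = 0.49).

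The 2 largest rises were Wfdc17 and Ccl8. Wfdc17, a small secreted protein gene of activated macrophages, read 9.87, 8.77, 8.87 and 9.07 under ASO 445236 against 5.94, 5.51, 4.89 and 4.99 under saline. Every ASO 445236 array lay above every saline array, and 2 of the 4 saline arrays had it above background. It rose by 3.81 ± 0.31 (14.0-fold, adjusted p = 1.26e-07). Ccl8, a chemokine that draws monocytes, read 9.08, 7.96, 7.98 and 8.15 against 4.94, 5.04, 4.66 and 4.98. It was not well above background on any saline array and was at least 7.72-fold higher (adjusted p = 2.4e-07), counted against the dimmest signal above background on those arrays. The gap between groups was wider than the range within either. Ms4a7, a membrane protein gene of macrophages, read 8.29, 7.65, 7.95 and 8.43 against 5.83, 5.72, 4.88 and 5.58 and rose by 2.58 ± 0.30; its other probe, called higher as well, was not well above background on any saline array. Adgre1, a surface antigen of mouse macrophages, read 7.88, 7.31, 7.60 and 8.31 against 5.97, 6.15, 5.16 and 5.83, a rise of 2.0 ± 0.31, and its other probe rose by 1.24. In both genes the lowest array was saline replicate 3.

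The same array set the saline spread of the lysozyme genes. Lyz2, the lysozyme of macrophages and granulocytes, read 10.65, 9.98, 10.38 and 10.38 against 9.01, 9.05, 6.99 and 8.60 and rose by 1.94 ± 0.33. Its close paralog Lyz1 rose by 1.67 ± 0.25, and both other probes, above background on 3 and 1 of the saline arrays, were called higher; without probe sequences the paralogs cannot be told apart. Other genes among the 15 largest rises were Laptm5, a lysosomal membrane protein of haematopoietic cells (1.68 ± 0.23), Plek, the protein kinase C substrate pleckstrin (1.61 ± 0.21), Clec10a, a galactose-type lectin of macrophages (1.57 ± 0.27), and the adhesion adaptor gene Lpxn, below background on all saline arrays and at least 1.78-fold higher. Hal, histidine ammonia-lyase, read 7.78, 7.80, 7.75 and 8.28 against 6.0, 5.82, 4.83 and 5.11 and rose by 2.46 ± 0.31. The predicted gene Gm4841, above background on 1 saline array, rose by 1.78 ± 0.30. Plek too was above background on 1 saline array, and Hal on 2. With saline arrays at background the sizes of these rises are not well measured. Over the alternatives the differences ran from 1.027 to 3.425 for Plek, 1.801 to 3.937 for Hal and 1.138 to 3.879 for Gm4841.

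**Figure D3:**
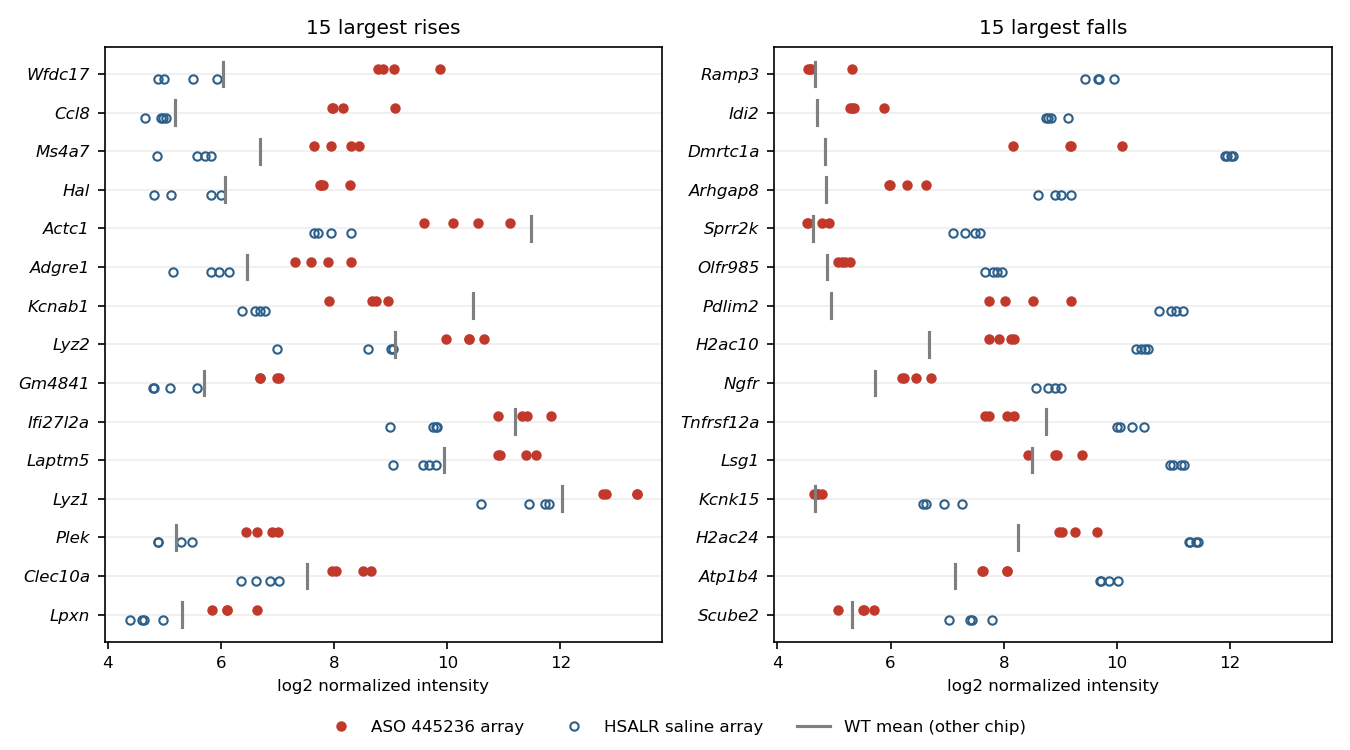
Log2 normalized intensity (x axis) of the 15 genes with the largest rise and the 15 with the largest fall among called genes whose groups do not overlap, with red filled points for the 4 ASO 445236 arrays, blue open points for the 4 saline arrays and a grey bar for the mean of the 4 WT arrays on the other chip. In each gene shown the red and blue points are apart, as the choice of genes requires; Ramp3 has an ASO 445236 mean close to its WT mean of 4.66.

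Counted over the list of myeloid markers, 10 of 17 tested were higher and 0 lower (0 lower at an unadjusted limma p under 0.05), with a median difference of 1.22 beside 0.01 over all genes. Besides the genes above they included Lgals3, a galectin of phagocytes (1.49 ± 0.18), the Fc receptor genes Fcgr3 (1.45 ± 0.19) and Fcgr2b, and Ms4a6d. The mean deviation of the list from the saline mean was 1.63, 0.96, 1.05 and 1.43 on the ASO 445236 arrays and 0.24, 0.16, -0.44 and 0.03 on the saline arrays, so the groups did not overlap. Of the list's 26 markers 3 were not on the array by symbol and 6 did not pass the filter on dim probes. The scavenger receptor genes Cd163 and Mrc1, known from resident macrophages, differed by 0.00 and 0.39 and the co-receptor gene Cd14 by -0.14, none called. In bulk tissue, more cells of a type and more RNA per cell cannot be told apart. Without the 2 arrays that held Xist the count was again 10 of 17. The lymphocyte list could not be read this way, since 1 of its 19 markers, Thy1, passed the filter (-0.19 ± 0.20, not called).

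Complement genes rose with them, with 7 of 10 tested higher, 0 lower (0 lower at an unadjusted limma p under 0.05) and a median of 0.82. C4b, a component of the classical pathway, read 8.65, 8.44, 8.61 and 8.92 against 7.31, 7.74, 7.24 and 7.52 and rose by 1.2 ± 0.20. C2, its partner in the C3 convertase, rose by 0.96 ± 0.20. The 3 chains of C1q, which macrophages make, rose by 0.97 ± 0.22 (C1qa), 0.89 ± 0.24 (C1qb) and 0.98 ± 0.27 (C1qc). The C1 inhibitor gene Serping1 rose by 0.71 ± 0.13, reading 11.11, 10.81, 10.68 and 11.16 against 10.19, 10.54, 9.91 and 10.29, without overlap. In WT, on the other chip, means were 7.69 for C4b, 8.09 for C2, 6.03 for C1qa and 11.12 for Serping1. Those under ASO 445236 were 8.66, 7.99, 6.48 and 10.94. Without saline replicate 3 the count fell to 4 of 10, and without both Xist arrays to 5.

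Of 24 tested genes of lysosomes and scavenger receptors 10 were higher and 0 lower (2 lower at an unadjusted limma p under 0.05), with a median of 0.38. Gpnmb, a glycoprotein of lysosome-rich phagocytes, read 8.56, 8.88, 8.70 and 9.25 against 7.58, 7.79, 7.25 and 7.68 and rose by 1.27 ± 0.17. Grn, which encodes the lysosomal protein progranulin, rose by 1.11 ± 0.13. The cathepsin protease genes Ctss, Ctsk and Ctsb rose by 1.19 ± 0.24, 0.96 ± 0.18 and 0.60 ± 0.08. The membrane markers Lamp1 and Lamp2, which all cells use, both differed by 0.12 and were not called. Beside the list, the myeloid markers moved as given above, and their part in it was not tested.

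Chemokine and receptor genes were higher in 7 of 14 cases and lower in 1, with a median of 0.66. After Ccl8 the largest was the neutrophil chemokine Cxcl1 at 1.04 ± 0.33, reading 7.95, 6.98, 6.46 and 6.47 against 5.96, 6.04, 5.58 and 6.12. The other members that rose were Ccl7, Cxcl9, Cxcl16, Cxcl14 and Ccl21a, by 0.73 to 0.95. The lymphoid chemokine Ccl21a has near-identical copies in mouse strains that its probe may not part. Cxcl12, which stromal and endothelial cells make, fell by 0.88 on the log2 scale (SE 0.27, adjusted p = 0.0422), though ASO 445236 replicate 2 at 10.46 lay among the saline arrays. These counts are sensitive to single arrays: without ASO 445236 replicate 1 they were 3 and 0, without saline replicate 1 or replicate 2 they were 4 and 0, and without both Xist arrays 2 and 0.

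Antigen presentation genes were higher in 5 of 11 cases and lower in 0 (0 lower at an unadjusted limma p under 0.05), with a median of 0.71. The class II genes H2-Ab1 (1.34 ± 0.34) and Cd74, the invariant chain (1.30 ± 0.32), differed most. Cd74 read 10.61, 9.90, 9.71 and 10.52 against 9.30, 8.89, 8.30 and 9.05, so the groups did not overlap. The class I light chain gene B2m rose by 0.71 ± 0.16 and the class I gene H2-D1 by 0.82 ± 0.25, and H2-DMa, which loads peptides on class II molecules, by 0.72 ± 0.22. In WT, on the other chip, means were 10.05 for Cd74, 9.18 for H2-Ab1, 12.20 for B2m and 7.08 for H2-D1. Those under ASO 445236 were 10.18, 9.78, 12.03 and 6.92. The peptide transporter gene Tap2 and the immunoproteasome gene Psmb9 differed by -0.10 and 0.32 and were not called. Without saline replicate 3 the count fell to 2 of 11, and without any 1 of the 4 ASO 445236 arrays, without saline replicate 4, or without both Xist arrays, to 3.

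Of 21 tested interferon response genes 8 were higher and 0 lower (0 lower at an unadjusted limma p under 0.05), with a median of 0.26. Interferon-induced genes are switched on by STAT and IRF transcription factors, which bind response elements near their start sites. Ifi27l2a, an interferon-induced gene, read 11.83, 10.89, 11.32 and 11.41 against 9.83, 9.80, 8.98 and 9.75 and rose by 1.77 ± 0.24. Oasl2, a member of the oligoadenylate synthetase family, read 7.23, 7.31, 6.74 and 6.99 against 5.83, 5.61, 5.38 and 5.59 and rose by 1.46 ± 0.20. Usp18, which removes the ubiquitin-like ISG15 from proteins, read 6.99, 7.03, 6.61 and 6.80 against 5.84, 5.67, 5.39 and 5.44 and rose by 1.27 ± 0.16. In all of them the groups were apart. In WT, on the other chip, Ifi27l2a had a mean of 11.19, Oasl2 of 6.44 and Usp18 of 6.81. Their means under ASO 445236 were 11.36, 7.07 and 6.86. Ifit3, which belongs to a family that binds foreign RNA, read 7.42, 7.52, 7.22 and 6.87 against 6.28, 6.41, 6.11 and 6.37 and rose by 0.96 ± 0.19. The guanylate-binding protein genes Gbp3 and Gbp2 rose by 0.94 ± 0.20 and 0.60 ± 0.17, Ifit2 by 0.63 ± 0.16, and the chemokine Cxcl9, below background on all 4 saline arrays, was at least 1.30-fold higher. Rsad2, the antiviral enzyme viperin, read 8.27, 7.76, 6.73 and 6.22 against 5.91, 6.11, 5.86 and 6.16, and its difference of 1.24 ± 0.49 was not called (adjusted p = 0.111). The ubiquitin-like modifier gene Isg15 differed by 0.45 and was not called. The list's mean deviation was 0.57, 0.70, 0.32 and 0.40 on the ASO 445236 arrays, highest on replicate 2, where the myeloid list was lowest, and between -0.09 and 0.05 under saline. Without both Xist arrays 7 of 21 were higher.

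The promoters of the genes that rose and held a match to the core of the interferon response element are shown. The gene list was written by gene name and not by this element, and a match is not a site. The letters searched were GAAANNGAA on either strand, over 250 bases before each gene's start, from RefSeq (GRCm38.p6), and matches are in capitals, printed along each gene's own strand. In Gbp3, which has a second start whose window holds no match, 2 matches overlap.
Ifit3, chr19:34583279-34583528, plus strand: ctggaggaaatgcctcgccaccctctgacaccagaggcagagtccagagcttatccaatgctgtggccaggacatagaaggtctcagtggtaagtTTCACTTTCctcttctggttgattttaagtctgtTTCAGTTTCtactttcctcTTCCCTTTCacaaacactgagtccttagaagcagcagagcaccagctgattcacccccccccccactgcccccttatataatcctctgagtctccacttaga
Gbp2, chr3:142620413-142620662, plus strand: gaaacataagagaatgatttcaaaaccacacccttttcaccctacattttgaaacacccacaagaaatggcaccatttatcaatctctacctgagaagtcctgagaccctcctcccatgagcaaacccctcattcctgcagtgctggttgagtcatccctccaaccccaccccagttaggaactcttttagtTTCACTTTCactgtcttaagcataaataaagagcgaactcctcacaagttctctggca
Gbp3, chr3:142559794-142560043, plus strand: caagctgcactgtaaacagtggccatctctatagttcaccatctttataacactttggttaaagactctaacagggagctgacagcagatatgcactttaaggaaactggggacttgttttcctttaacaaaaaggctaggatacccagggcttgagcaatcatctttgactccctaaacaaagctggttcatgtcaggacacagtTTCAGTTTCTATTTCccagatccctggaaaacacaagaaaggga
Cxcl9, chr5:92328080-92328329, minus strand: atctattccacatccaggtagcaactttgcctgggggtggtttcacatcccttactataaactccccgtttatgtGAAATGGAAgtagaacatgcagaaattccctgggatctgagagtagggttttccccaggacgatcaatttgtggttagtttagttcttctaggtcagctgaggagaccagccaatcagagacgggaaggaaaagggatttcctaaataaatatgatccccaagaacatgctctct

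Among interferon response genes with a known promoter, 10 of 16 held the motif (62.5%). The shares were 536 of 7099 tested genes with a promoter (7.55%) and 2211 of all 27025 genes with a promoter (8.18%). A gene counted where any of its promoters held a match. Within the list it did not part the genes that rose, 4 of 6 (66.7%), from those not called, 6 of 10 (60%). Ifi27l2a and Usp18, which also rose, had no promoter to search and are not counted. The promoters of Oasl2 and Ifit2, which rose, held no match to these letters.

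Genes of Toll-like and nucleic acid receptors, the sensors through which oligos are known to reach innate immunity, did not move one way. Of 16 tested 2 were higher and 3 lower, with a median of 0.08. Irf5, a transcription factor downstream of Toll-like receptors, read 6.59, 6.79, 7.18 and 6.89 against 8.20, 8.20, 8.61 and 8.40 and fell by 1.49 on the log2 scale (SE 0.15, adjusted p = 1.74e-06). It lay lower on every ASO 445236 array, while 6.07 was its mean level in WT on the other chip. Tlr6 was lower at -0.78 ± 0.23 and Irf3 at -0.31 ± 0.10. Irf8, a transcription factor of myeloid cells, was higher at 0.51 ± 0.15 and the RNA sensor Tlr13 at 0.58 ± 0.18. Calls of Tlr6, Irf8 and Tlr13 were lost without several single arrays, and without any of saline replicates 3 and 4 or ASO 445236 replicate 4 the count was 0 higher and 1 lower. Tlr7, an RNA sensor of the endosome, differed by 0.37 and the adaptor gene Myd88 by 0.16, neither called. Tlr9, which senses DNA with CpG, was not among the genes tested.

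Several of the largest falls were in genes that were below background on all 4 WT arrays. Ramp3, a partner protein of calcitonin-type receptors, read 9.67, 9.94, 9.44 and 9.69 under saline and 4.58, 5.32, 4.59 and 4.54 under ASO 445236, where it was above background on 1 of 4 arrays. The gene fell (adjusted p = 3.14e-09). The fitted difference was -4.93 ± 0.29, and -5.62 to -3.80 over the alternatives; with 3 ASO 445236 arrays at background its size is not well measured. Its mean was 4.66 in WT on the other chip. Idi2, an isomerase of the isoprenoid pathway, read 8.75, 8.83, 8.78 and 9.13 under saline and 5.31, 5.88, 5.28 and 5.36 under ASO 445236, above background on 2 of these arrays, and fell, with a fitted difference of -3.41 ± 0.23 (-4.09 to -2.68 over the alternatives). In both genes ASO 445236 replicate 2 was the array nearest to saline. Of 15 genes of sterol and isoprenoid synthesis tested, 0 were higher (1 at an unadjusted limma p under 0.05) and 2 lower, Idi2 and Lss.

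Other genes fell from a high saline level and stayed above background. Dmrtc1a, of the DMRT family of transcription factors, read 11.90, 12.01, 12.05 and 11.94 under saline and 8.17, 10.09, 9.19 and 9.18 under ASO 445236, and fell by 2.82 (SE 0.25), and its WT mean was 4.83, below background on all 4 arrays. The saline arrays were tight and the ASO 445236 arrays spread, with replicate 1 lowest and replicate 2 highest. Pdlim2, a PDZ and LIM domain protein, fell by 2.61 (SE 0.23) by its brightest probe, reading 10.96, 10.74, 11.05 and 11.17 against 8.02, 9.19, 7.75 and 8.51, but its other probes differed by -0.07 and -0.09. Lsg1, a GTPase of ribosome assembly, fell by 2.14 (SE 0.15) by its brighter probe; the other, above background on 1 saline array, differed by 0.58 and was not called. For Pdlim2 and Lsg1 the fall is thus that of a single probe, and of the other probes 1 of Pdlim2 was above background on all 8 arrays.

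Olfr985, Sprr2k and Kcnk15 fell to background. The olfactory receptor gene Olfr985 read 7.68, 7.88, 7.81 and 7.98 under saline and was above background on 0 of 4 ASO 445236 arrays, at least 5.64-fold lower. Sprr2k, a gene of the cornified cell envelope, was at least 4.10-fold lower and the potassium channel gene Kcnk15 at least 2.85-fold lower, both above background on all saline arrays and on 0 of 4 ASO 445236 and 0 of 4 WT arrays. The histone genes H2ac10 and H2ac24 fell together, at -2.47 ± 0.18 and -2.12 ± 0.17. H2ac10 read 10.55, 10.43, 10.50 and 10.35 under saline and 7.74, 8.18, 7.91 and 8.13 under ASO 445236. Histone H2A genes are close copies, and which of them these probes read cannot be told apart here. Atp1b4, a muscle relative of the sodium pump's beta subunits, was lower at -1.98 ± 0.14, reading 9.71, 10.02, 9.69 and 9.86 under saline and 7.64, 8.05, 8.05 and 7.62 under ASO 445236. Scube2, a secreted CUB and EGF domain protein, was lower at -1.96 ± 0.19.

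Of 25 tested genes of muscle regeneration, denervation and stress 9 were lower (36.0%), 0 higher (2 higher at an unadjusted limma p under 0.05) and 16 not called, with a median of -0.28. Fitted on the 8 arrays of the chip alone, 2 were higher and 10 lower, and under median scaling 2 and 8. The neurotrophin receptor gene Ngfr, which denervated and regenerating muscle expresses, read 8.58, 9.01, 8.78 and 8.90 under saline and 6.23, 6.45, 6.71 and 6.19 under ASO 445236, and fell by 2.42 (SE 0.25). Ngfr is also a Schwann cell marker, and of the other markers of nerve and Schwann cells tested Mbp, Mag and Pmp22 differed by -0.06, -0.02 and 0.33 and were not called; Pmp22 was called higher on the 8 arrays alone (adjusted p = 0.0444) and under median scaling (0.0111). Their part in the fall of Ngfr was not tested. Csrp3, a LIM protein of the Z-disc, was lower at -1.52 ± 0.26, Mustn1, a nuclear protein of regenerating muscle, at -1.23 ± 0.15, and the actin-binding gene Xirp1 at -1.19 ± 0.21. The titin-binding stretch-response genes Ankrd2 and Ankrd1 were lower at -0.95 ± 0.30 and -0.89 ± 0.18, the adhesion molecule Ncam1 at -0.86 ± 0.17 and the acetylcholine receptor subunit Chrnb1 at -0.76 ± 0.11. Myogenic factors did not move with them, Myod1 at 0.16, Myog at 0.25 and Myf6 at -0.16, none called. Sln, the calcium pump inhibitor sarcolipin, read 12.59, 13.32, 13.45 and 13.50 under saline and 11.51, 12.52, 11.99 and 12.15 under ASO 445236; the groups did not overlap, but the difference of -1.17 ± 0.44 was not called (adjusted p = 0.0903). It was called lower in the fit of the 8 arrays of the chip alone (adjusted p = 0.00193) and with chip position as a covariate (0.00413). Tnfrsf12a, the receptor for the cytokine TWEAK, which injured muscle expresses, was not on the list and was lower at -2.29 ± 0.24, reading 7.67, 8.06, 7.74 and 8.19 under ASO 445236 against a saline mean of 10.21 ± 0.22 (SD, n = 4), without overlap. Without both Xist arrays 8 of 25 members were lower. Cdkn1a, given below among p53 targets, is also counted among the lower members of this list.

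Of 15 heat shock protein genes tested 5 were lower (33.3%) and 0 higher (0 higher at an unadjusted limma p under 0.05), with a median of -0.09. Hspb7, a small heat shock protein of muscle, read 12.72, 12.58, 12.63 and 12.36 under saline and 11.02, 10.66, 10.76 and 10.96 under ASO 445236, and fell by 1.72 (SE 0.18). Hspb1 was lower at -0.80 ± 0.13. The co-chaperone Bag3 and its partner Hspb8 were lower at -0.30 ± 0.08 and -0.28 ± 0.07, and Hspb3 at -0.28 ± 0.08. Under median scaling, and without both Xist arrays, 2 of 15 were lower. Hspa8, the constitutive chaperone of the cytosol, differed by 0.09 and was not called.

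Of 12 p53 targets 3 were lower and 2 higher. Phlda3, an inhibitor of Akt signalling, read 11.06, 11.44, 11.41 and 11.30 under saline and 9.47, 10.13, 9.74 and 10.26 under ASO 445236, and fell by 1.40 (SE 0.14), and its other probe fell by 1.46. The cell cycle inhibitor Cdkn1a was lower at -1.21 ± 0.15, with other probes at -0.91 and -1.41, all called. The cell death gene Bbc3 was lower at -0.77 ± 0.16 by its brighter probe. Its other probe, above background on 4 saline and 2 ASO 445236 arrays, differed by -0.31 and was not called. Ddit4l, an inhibitor of mTOR signalling, was higher at 0.66 ± 0.14 and the cyclin gene Ccng1 at 0.27 ± 0.07, while Mdm2, the feedback regulator of p53, differed by 0.13 and was not called. Of 11 immediate early and stress transcription factors 1 was lower and 0 higher (0 higher at an unadjusted limma p under 0.05). That was Atf3, which stress induces, at 9.84, 9.35, 9.0 and 8.80 under saline and 7.56, 8.01, 7.83 and 7.46 under ASO 445236, and fell by 1.53 (SE 0.29). Fos read 11.48, 11.25, 10.55 and 9.18 against 11.06, 10.10, 8.92 and 8.60, overlapping, and was not called (-0.95 ± 0.50).

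Of 15 genes of the unfolded protein and integrated stress response 3 were higher and 1 lower. Cdnf, a neurotrophic factor kept in the endoplasmic reticulum, read 9.15, 8.92, 9.02 and 8.92 against 7.56, 7.53, 7.76 and 7.71 and rose by 1.36 ± 0.10 (adjusted p = 4.17e-08). The groups were tight and far apart. Herpud1, of protein degradation at the endoplasmic reticulum, rose by 0.30 ± 0.08 and the asparagine synthetase gene Asns by 0.67 ± 0.21 (adjusted p = 0.0447, lost under 10 of 20 alternatives). Ddit3, the stress transcription factor CHOP, was lower at -0.57 ± 0.14, a call lost under median scaling. Its other probe differed by -0.35 and was not called. The chaperone Hspa5 differed by -0.19 and the transcription factor Atf4 by 0.21, neither called.

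Among the 4 actins tested, Actc1, the cardiac form that fetal and regenerating muscle also uses, rose, and Acta1, Actb and Acta2 differed by 0.05, -0.05 and -0.51 and were not called. Actc1 read 9.59, 10.11, 11.10 and 10.54 against 7.94, 7.65, 7.71 and 8.29 under saline. The rise was 2.44 ± 0.23 (5.42-fold, adjusted p = 7.93e-07) and 2.42 by the other probe. Its mean in WT on the other chip was 11.48 ± 0.24 (SD). Kcnab1, a beta subunit of voltage-gated potassium channels, read 7.91, 8.68, 8.96 and 8.74 against 6.69, 6.79, 6.61 and 6.36 and rose by 1.96 ± 0.18, its other probe by 1.77; its WT mean was 10.46 ± 0.25 (SD). In both genes replicate 1 was the ASO 445236 array nearest to saline.

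Of 13 tested genes of chloride, sodium and potassium channels and pumps 2 were higher and 1 lower. Besides Kcnab1 the member that rose was Clcn1, the muscle chloride channel whose loss gives myotonia. Clcn1 read 7.31, 7.81, 7.85 and 7.64 against 6.67, 7.04, 6.80 and 7.11, without overlap, and rose by 0.75 ± 0.16 (1.68-fold, adjusted p = 0.00331), while its other probe was near background, above it on 2 ASO 445236 arrays and 1 saline array, and differed by 0.03. The voltage-gated potassium channel gene Kcnc1 was lower at -0.53 ± 0.08 by its brighter probe; the other was above background on 1 array of each group. Of 17 genes of calcium handling 2 were higher (11.8%) and 1 lower (5.88%), beside 6.56% and 6.44% over all genes. On the 8 arrays of the chip alone 1 was higher and 2 lower. Without ASO 445236 replicates 1, 2 or 4, saline replicates 1, 3 or 4, or both Xist arrays, 1 was higher. Casq1, which binds calcium in the sarcoplasmic reticulum, read 12.39, 12.06, 12.51 and 12.25 against 11.73, 11.70, 11.36 and 11.66 and rose by 0.69 ± 0.13. Cacng1, a subunit of the voltage sensor channel, was lower at -0.61 ± 0.12, and the release channel Ryr1 and the pump Atp2a1 differed by 0.07 and -0.02 and were not called.

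Splicing itself was not measured, since an array probe reads the level of the transcripts that hold it. At gene level, Mbnl1 differed by 0.12 ± 0.09 (adjusted p = 0.48) and Mbnl2 by 0.20 ± 0.09 (adjusted p = 0.157), neither called. Mbnl2 read 13.12, 13.19, 13.02 and 13.07 against 12.99, 12.83, 12.89 and 12.91, without overlap, and was called by its other probe (0.40) and under median scaling. Of 20 splicing regulators 2 were higher and 2 lower. Celf2, of the CELF family that acts against MBNL proteins at many exons, read 11.50, 11.50, 11.54 and 11.34 against 10.50, 10.48, 10.31 and 10.45. The rise was 1.03 ± 0.07 (adjusted p = 1.36e-08) and 0.91 by the other probe, while Celf1, the member known to be raised in the disease, differed by -0.17 and was not called. Hnrnph1, an RNA-binding protein that acts on exon choice, rose by 0.73 ± 0.14, and 2 of its 4 other probes were called higher. Rbm38 and Rbm24, RNA-binding proteins of muscle, were lower at -0.41 ± 0.09 and -0.55 ± 0.17, calls lost under median scaling, where 6 members were higher and 0 lower; that of Rbm24 was lost under 12 of 20 alternatives.

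Of 18 genes whose transcripts are known to be mis-spliced in myotonic dystrophy 2 were higher and 3 lower, with a median of -0.01. Fhl1, a LIM protein of muscle, read 13.78, 13.85, 13.76 and 13.90 under ASO 445236 against a saline mean of 15.04 ± 0.04 (SD, n = 4). It fell by 1.21 (SE 0.08, adjusted p = 1.86e-08) and its other probe by 1.34, and the groups were far apart. The Z-disc genes Ldb3 and Pdlim3 went opposite ways, Ldb3 higher at 0.64 ± 0.15 and Pdlim3 lower at -0.30 ± 0.06, and the kinase gene Camk2b was lower at -0.50 ± 0.13. The other probe of Ldb3 differed by 0.48 and was not called, and that of Pdlim3 was called lower at -0.61. Others of the list, such as Bin1 at -0.10, Ttn at -0.04 and Atp2a1 at -0.02, were not called.

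Muscle fibre genes place the tissue. All 11 fibre markers tested were above background on every ASO 445236 array and 10 of them on every saline array, with Acta1 and the fast myosin Myh4 near the top of the scale. Of 14 fast fibre genes 1 was higher and 1 lower, with a median of 0.02. Each is a share of 7.14%, near the 6.56% and 6.44% over all genes. Myh1, the myosin of an intermediate fast fibre type, read 13.53, 13.28, 13.34 and 13.27 under saline and 12.46, 12.68, 12.28 and 12.65 under ASO 445236, and fell by 0.83 (SE 0.11), and its other probe by 1.08. Myh4, of the fastest fibres, was higher at 0.24 ± 0.07, a call lost under 10 of 20 alternatives. Of 11 slow fibre genes 1 was lower, Mb (-0.24 ± 0.07), and 0 were higher (0 higher at an unadjusted limma p under 0.05), although 8 differences were positive. The call of Mb by its brighter probe was lost under 9 of 20 alternatives, without any of 6 single arrays among them. Its other probe was called lower at -0.66 ± 0.12. The median of the list was 0.84, 0.37 without saline replicate 2 and 1.24 without saline replicate 3. The saline arrays were split: Tnnc1, slow troponin C, read 12.18, 8.15, 12.28 and 8.61, while the ASO 445236 arrays read 11.73, 11.65, 11.08 and 12.23 (1.36 ± 0.85, adjusted p = 0.345). Myl3, a slow myosin light chain, was split the same way, at 12.81, 9.82, 13.19 and 9.57 against 12.60, 12.60, 12.18 and 12.92. Saline replicates 2 and 4 were thus low in both genes. Over the list the ASO 445236 arrays had mean deviations of 0.30 to 1.01, below saline replicates 1 and 3 at 1.05 and 1.14.

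Among metabolic genes, of 23 genes of fatty acid uptake and oxidation 4 were higher and 0 lower (0 lower at an unadjusted limma p under 0.05), 22 differences were positive and the median was 0.20. The carnitine carrier Slc25a20 rose by 0.34 ± 0.08, reading 11.39, 11.54, 11.46 and 11.63 against 10.93, 11.24, 11.31 and 11.18, and the isomerase Eci1 rose by 0.34 ± 0.09. Cpt1b, the gate of fatty acids into mitochondria, rose by 0.33 ± 0.10 and the lipase inhibitor gene Angptl4 by 0.96 ± 0.30. Calls of Cpt1b and Angptl4 were each lost under 10 of 20 alternatives. The other probes of Cpt1b and Slc25a20, above background on every array of both groups, differed by 0.05 and 0.21 and were not called. Under median scaling 9 of 23 were higher; without ASO 445236 replicate 4, saline replicate 1 or both Xist arrays 1 was, and without saline replicate 4, 2. Of 42 genes of oxidative phosphorylation and the TCA cycle 3 were higher (7.14%) and 1 lower (2.38%), with a median of 0.01. The shares over all genes were 6.56% and 6.44%. Called members included Idh3a, a subunit of isocitrate dehydrogenase, at 0.50 ± 0.07 and the ATP synthase gene Atp5c1 at -0.35 ± 0.10. Without ASO 445236 replicates 3 or 4 or saline replicates 1 or 2, 1 was higher, without ASO 445236 replicates 1, 3 or 4 or saline replicates 2 or 3, 0 were lower, and under median scaling 5 were higher and 0 lower. Of 18 genes of glycolysis and glycogen 1 was higher (5.56%) and 0 lower (3 lower at an unadjusted limma p under 0.05). That call was lost without 6 of the 8 single arrays, and 3 were higher and 1 lower under median scaling. Of 24 genes of atrophy and the proteasome 0 were higher (0 higher at an unadjusted limma p under 0.05) and 1 was lower, a call lost without 7 of the 8 single arrays; under median scaling the direction turned, with 6 higher and 0 lower. Of 23 ribosomal protein genes 0 were called either way by limma (1 higher and 3 lower at an unadjusted p under 0.05). Of 14 clock genes 1 was higher, the transcription factor Tef at 0.44 ± 0.10 by its brighter probe, and 0 lower (1 lower at an unadjusted limma p under 0.05).

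Of 17 genes of growth hormone and IGF signalling 4 were higher and 2 lower. Igfbp5, an IGF-binding protein that muscle secretes, read 13.51, 14.01, 13.72 and 13.58 against 12.17, 12.39, 12.01 and 12.39 and rose by 1.46 ± 0.17 (2.76-fold, adjusted p = 1.4e-05). Its mean was 13.73 in WT on the other chip. Without both Xist arrays 2 members were higher and 1 lower, and without ASO 445236 replicates 1 or 4 or saline replicates 1, 2 or 4, 1 was lower. The growth hormone receptor gene Ghr rose by 0.50 ± 0.10, Igfbp4 by 0.49 ± 0.11 and the kinase Akt2 by 0.54 ± 0.17, a call lost under 10 of 20 alternatives. The other probes of Ghr and Igfbp4 differed by 0.32 and 0.43 and were not called. Socs2 and Socs3, feedback inhibitors of cytokine receptors, were lower at -0.94 ± 0.23 and -0.53 ± 0.16, with Socs2 at 10.12, 9.36, 9.43 and 9.28 under saline and 8.81, 9.24, 8.30 and 8.06 under ASO 445236. The call of Socs3 was lost under 9 of 20 alternatives. Igf1 itself differed by 0.45 ± 0.18 and was not called.

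**Figure D4:**
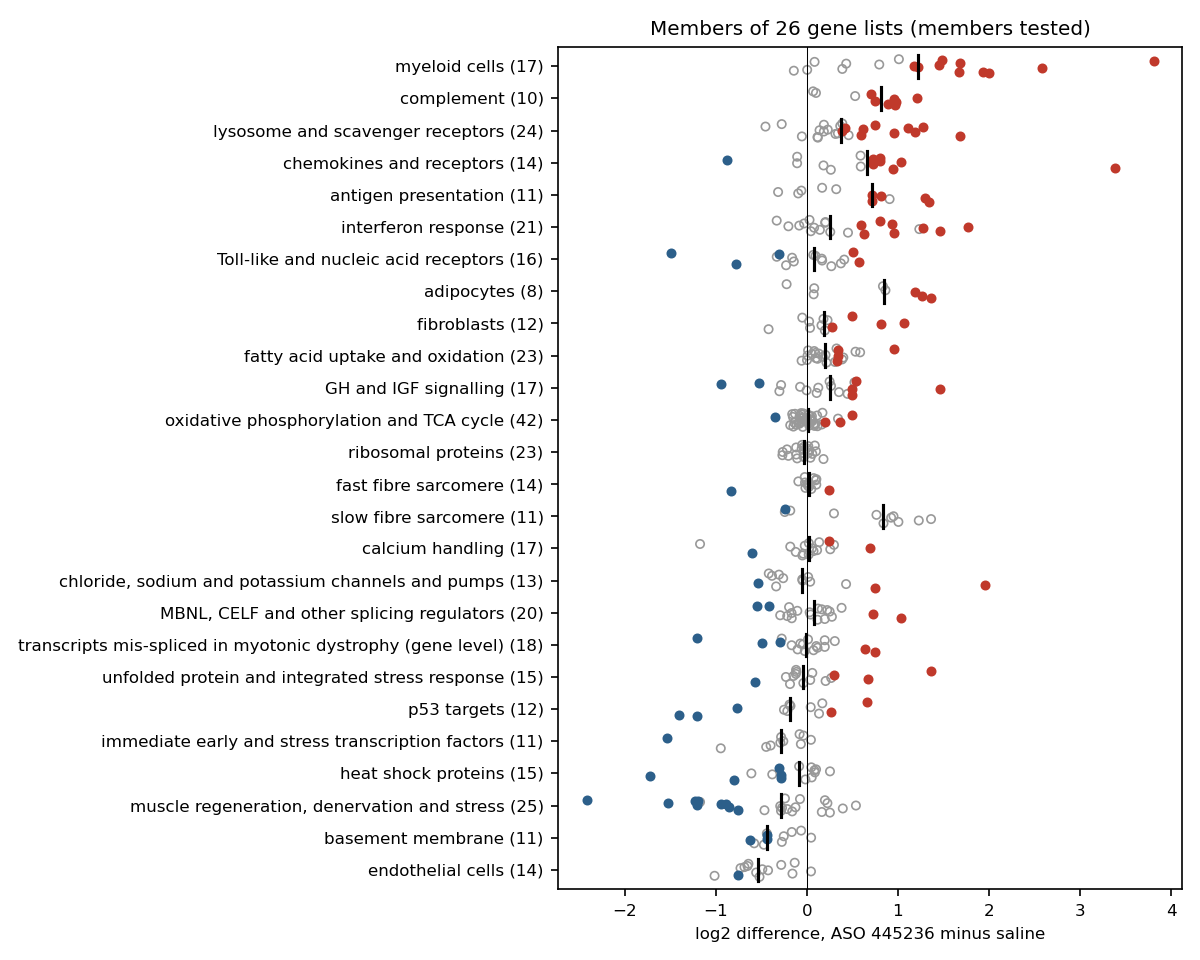
Log2 difference between ASO 445236 and saline (x axis) for each tested member of 26 gene lists (y axis, members tested in parentheses), with red for members called higher, blue for lower and open grey for not called, and a black bar at the list's median. The median is 1.22 for myeloid markers and -0.54 for endothelial markers; for slow fibre genes it is 0.84 with no member called higher.

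Markers of other cells in muscle differed as well. Of 12 fibroblast markers 4 were higher and 0 lower (0 lower at an unadjusted limma p under 0.05). Pi16, a marker of adventitial fibroblasts, read 9.73, 9.21, 9.0 and 9.36 against 7.98, 8.34, 8.35 and 8.40 and rose by 1.06 ± 0.18. The matrix protein genes Dpt, Fbln1 and Dcn rose by 0.82 ± 0.19, 0.49 ± 0.14 and 0.27 ± 0.06, while the collagens Col1a1 and Col3a1 differed by -0.42 and 0.03 and were not called. Other probes of Fbln1 (0.17 and 0.43) and Dcn (0.44) were not called. Of 22 genes of the interstitial matrix 2 were higher (9.09%) and 1 lower (4.55%), including the membrane protease Mmp14 at 0.77 ± 0.16. Of 8 adipocyte markers 3 were higher and 0 lower (0 lower at an unadjusted limma p under 0.05), the adipokine genes Lep (1.27 ± 0.27) and Adipoq (1.37 ± 0.42) and the lipid droplet gene Cidec (1.19 ± 0.36). Adipoq read 11.42, 9.58, 10.45 and 10.38 against 9.71, 9.23, 8.03 and 9.39, which overlap, and replicate 1 was the highest array. Without ASO 445236 replicate 1 or 4, saline replicates 2, 3 or 4, or both Xist arrays, 1 adipocyte marker was higher, and the adipocyte markers' part in the fatty acid genes was not tested.

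Of 14 endothelial markers 1 was lower (7.14%, beside 6.44% over all genes) and 0 higher, with a median of -0.54. At an unadjusted limma p under 0.05, 9 were lower and 0 higher. Flt1, a VEGF receptor, read 10.27, 10.15, 10.51 and 10.34 under saline and 9.26, 10.31, 9.32 and 9.34 under ASO 445236, and fell by 0.76 (SE 0.21, adjusted p = 0.0253). Replicate 2 lay among the saline arrays and the other 3 below them. The whole list behaved so, with mean deviations of -0.93, 0.20, -0.71 and -0.57 under ASO 445236 and from -0.25 to 0.25 under saline, and without ASO 445236 replicate 2, 7 of 14 were lower. Without ASO 445236 replicates 1, 3 or 4, saline replicates 3 or 4, or both Xist arrays, 0 were (limma). Of 11 basement membrane genes, which endothelial cells and fibres share, 3 were lower and 0 higher (7 lower and 0 higher at an unadjusted limma p under 0.05), with a median of -0.44: the laminin genes Lamb2 (-0.63 ± 0.18) and Lamc1 (-0.44 ± 0.14) and perlecan, Hspg2 (-0.44 ± 0.13). Without ASO 445236 replicates 1 or 3, saline replicates 1 or 3, both Xist arrays, or under median scaling 0 of these were called (limma), and without ASO 445236 replicate 4 or saline replicate 4, 1 was. Of 10 markers of smooth muscle and pericytes 0 were called (limma; 3 lower at an unadjusted p under 0.05, and 2 called lower without ASO 445236 replicate 2). Erythroid markers, of which 5 were tested and 0 called (0 at an unadjusted limma p under 0.05), spread widely on the ASO 445236 arrays, at 1.87, 0.95, -0.04 and -1.21 in mean deviation.

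**Figure D5:**
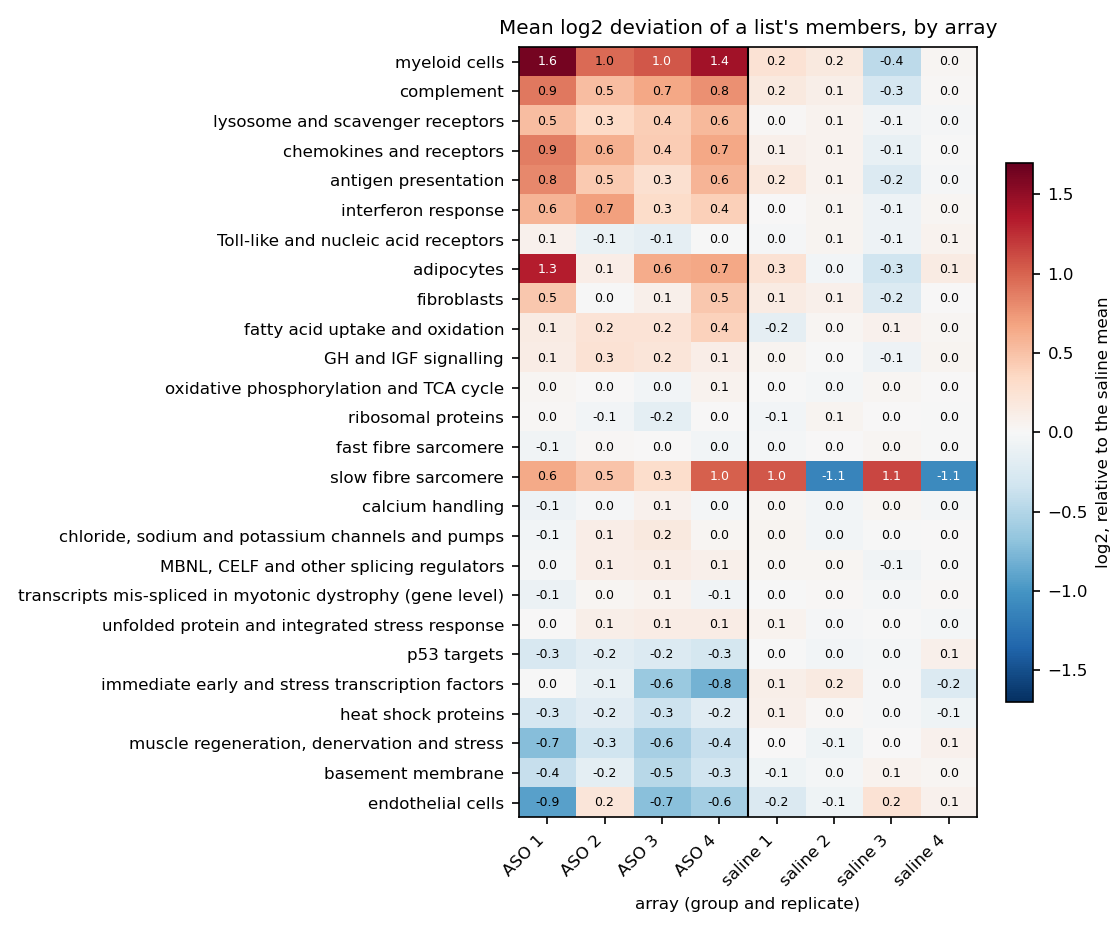
Mean log2 deviation of each list's tested members from the saline mean (colour, and printed to 1 decimal) for 26 gene lists (rows of squares) and 8 arrays (x axis). Myeloid markers are raised on all 4 ASO 445236 arrays (0.96 to 1.63), the slow fibre list splits the saline arrays (-1.12 to 1.14), and the endothelial list parts ASO 445236 replicate 2 (0.20) from the other 3 (-0.93 to -0.57).

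How far 1 probe stands for its gene could be checked for the 2188 genes with more than 1 tested probe. Of these 445 had at least 1 called probe, and in 98 all probes were called one way. In 343 some probes were called, all one way, and others not; in 268 of the 343 all differences had the same sign. In 4 genes, Gosr2, Ppp2r5c, Rab6a and Ubqln1, probes were called in both directions. In Gosr2, a SNARE protein of Golgi transport, the brightest probe rose by 0.44 and another fell by 0.50.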

How the data were processed

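Quadriceps RNA (100 ng) was amplified with biotin labelling for Illumina arrays, as the labels' protocols state. The deposited intensity of each probe holds values below 0, so background had been subtracted before deposit, and is otherwise not normalized. The detection p-value of each probe is given per the file headers. The scanner software's steps are not given in the sources used here. The submitters' processing notes name affy, with no role.

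Here intensities were background corrected with normexp from the detection p-values (limma 3.58.1, R 4.3.3), with an offset of 16, quantile normalized over 16 arrays and taken to log2. limma fitted the 4 group means (12 residual degrees of freedom, intensity trend), with Benjamini-Hochberg adjustment over 12364 probes. Symbols came from the platform annotation: 23978 probes had 1 gene, 0 several and 1719 none, and 684 tested probes were unnamed. The fit was tested on simulated data. A "bound" fold sets a gene below background at the dimmest signal above it.

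The members and gene lists were chosen with earlier results of these data known. The genes named are taken from the 15 largest rises and 15 largest falls among called genes whose groups do not overlap, up to 4 called members of each list by smallest p (the 2 with smallest p where none was called), and Acta1, Clcn1, Mbnl1, Mbnl2 and Rnaseh1. Not every gene that meets this rule is named, and 1 of the largest falls is not reported here. All other named genes, including members given as not called, were chosen after their values were seen. Alternatives covered scaling, offset, floor, filter, trend, chip position, probe choice, the authors' deposited intensities, each array left out and, added after seeing the data, both treatments of Xist.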

Additional observations from a re-analysis of the deposited data

Results flagged for a closer look

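Among the named genes, 21 arrays stood apart from the other 3 of their group, with most of the group's range lying between that array and the nearest other (Dixon's test), in 354 groups examined; chance gives about 1 in 20. Levels are log2 normalized intensities.

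Xist stood apart on replicate 1 of both groups, at 7.194 under ASO 445236 and 7.106 under saline, and Kdm5d was low on ASO 445236 replicate 1 at 5.039. On ASO 445236 replicate 1 Ccl8 was high at 9.078, while Ddit3 at 8.054 and Myf6 at 11.75 were low. ASO 445236 replicate 2 was high in Ramp3 (5.321), Idi2 (5.882), Flt1 (10.31), Lamb2 (9.675) and Mag (5.935), and in the first 4 of these it was the array nearest to or among the saline arrays. Mdm2 was high on ASO 445236 replicate 3 at 10.93. On ASO 445236 replicate 4 Hal at 8.278 and Lgals3 at 10.83 were high and Bbc3 at 5.838 was low.

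Among saline arrays, Pi16 was low at 7.975 and Myog high at 7.57 on replicate 1, Ldb3 was high at 11.72 on replicate 2, and on replicate 3 Ifi27l2a at 8.982 and Rab6a at 7.481 were low and Exosc4 at 8.792 high.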

How the results depend on the processing

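Over 177 named genes and 20 alternatives, 3186 of 3535 comparisons kept the side of the threshold, 338 lost the call and 11 gained it. A difference called in either fit changed sign in 0 comparisons. Differences called in neither fit count as kept even where the sign changed, as that of Acta1 did. The call of 120 genes changed under no alternative run. Median scaling kept 71.9% of the 1134 called genes and gave 1982 probes higher and 338 lower, 1485 genes higher and 251 lower, and 126 genes higher at least 2-fold, with the median of all genes at 0.16. Leaving out both arrays with Xist, which also leaves fewer samples, kept 61.9% and gave 498 probes higher and 490 lower and 362 genes higher and 365 lower, while Xist as a covariate gave 670 and 649 genes. Leaving out 1 array gave 410 to 526 genes higher and 401 to 573 lower. The number of genes higher at least 2-fold was 34 with an offset of 50, 130 with a floor at 16 and 179 with the authors' deposited values, and the number of genes lower at least 2-fold was 56 with an offset of 50; an offset shrinks differences of dim probes by construction. Lss lost its call under 14 of 19 alternatives, and Ankrd2, Cxcl1, Irf3, Lamc1 and Rbm24 under 12 of 20; calls further from the threshold were lost as well, those of Ppp2r5c (adjusted p = 0.00115) and Rbm38 (0.0052) under median scaling and those of Igfbp4 (0.00725) and Ldb3 (0.00745) without both arrays with Xist. No paired analysis was possible because the labels give no replicate numbers. Signals near background have no reliable order, and 4 arrays a group from 1 chip limit the precision; whether arrays are separate animals is not stated.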
